A study of Mus musculus with 16 samples.

Results

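A group of 9 genes of synapses and intracellular signalling, Itpka, Slc8a2, Plk2, Lzts1, Rasl11b, Vxn, Ankrd33b, Ankrd63 and Igfn1, is described here in mouse cortex and thalamus. They are 9 of the 21804 genes counted, and each was picked by name because its level was lower in thalamus than in cortex. The levels in the 2 regions are therefore a description with no test. For the members, tests are given only for the effect of genotype, which the choice did not name. Those tests use the same libraries as the choice, so within a region they are not independent of it. The study used C57BL/6 mice of 4 months carrying the retention (ret) allele of Pdgfb, which lacks the motif that holds the growth factor PDGF-B close to the vessel wall. In ret/ret mice, both copies carry the deletion, vessels have few pericytes and calcified nodules form in deep brain regions. The controls are ret/wt mice, which carry 1 ret copy and 1 wild-type copy, so every animal of the study carries the allele and no group lacks it. From each of 4 ret/wt and 4 ret/ret mice, 1 cortex and 1 thalamus library was sequenced, which gives 16 polyA RNA libraries in 4 groups of 4. In ret/ret mice the thalamus pieces were calcifications taken under a fluorescence stereomicroscope, and in ret/wt mice pieces came from the corresponding sites. Genotype and what was dissected cannot be told apart in thalamus.

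As background, excitatory synapses of forebrain neurons sit on dendritic spines, where calcium entry and inositol trisphosphate release of stored calcium drive changes in actin and in receptor number. Itpka phosphorylates inositol trisphosphate and bundles actin filaments in spines. Slc8a2 is a sodium/calcium exchanger of the plasma membrane that removes calcium from neurons. Plk2 is a polo-like kinase induced by neuronal activity that acts on spine proteins, and Lzts1 is a leucine zipper protein of the postsynaptic density. Rasl11b is a small GTPase of the Ras family. Vxn (vexin) was described in the formation of neurons, Ankrd33b and Ankrd63 carry ankyrin repeats, and Igfn1 carries immunoglobulin-like and fibronectin type III domains and is best known from skeletal muscle.

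The members lie on 7 chromosomes of GRCm38 (GENCODE M21). Itpka (ENSMUSG00000027296) lies at chr2:119742337-119751263 on the plus strand and Ankrd63 (ENSMUSG00000078137) at chr2:118699103-118703963 on the minus strand, 1.038 Mb apart with 32 counted genes between them. Vxn (ENSMUSG00000067879, chr1:9601199-9627143, plus) and Igfn1 (ENSMUSG00000051985, chr1:135953578-136006342, minus) share chromosome 1 at a distance of 126.3 Mb. The others are Slc8a2 (ENSMUSG00000030376, chr7:16129826-16161063, plus), Plk2 (ENSMUSG00000021701, chr13:110395046-110400844, plus), Lzts1 (ENSMUSG00000036306, chr8:69132669-69184225, minus), Rasl11b (ENSMUSG00000049907, chr5:74195286-74199481, plus) and Ankrd33b (ENSMUSG00000022237, chr15:31291478-31367726, minus). Vxn alone overlaps another annotated gene, the processed transcript 2610203C22Rik on the opposite strand, which is not among the genes counted.

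RefSeq promoters of GRCm38.p6 were matched for 7 of the 9 genes, all but Vxn and Lzts1. They are shown for Plk2, the member with a cyclic AMP response element, for Itpka, with the most matches to the GC box, for Ankrd63, with a TATA box, and for Igfn1, which has none of these. Each line gives the 250 bases before the annotated start, 5′ to 3′ on the gene's strand, and capitals mark a match to a motif that was searched. The coordinates are chr13:110394794-110395043 (plus) for Plk2, chr2:119742087-119742336 (plus) for Itpka, chr2:118703964-118704213 (minus) for Ankrd63 and chr1:136006343-136006592 (minus) for Igfn1.
Plk2: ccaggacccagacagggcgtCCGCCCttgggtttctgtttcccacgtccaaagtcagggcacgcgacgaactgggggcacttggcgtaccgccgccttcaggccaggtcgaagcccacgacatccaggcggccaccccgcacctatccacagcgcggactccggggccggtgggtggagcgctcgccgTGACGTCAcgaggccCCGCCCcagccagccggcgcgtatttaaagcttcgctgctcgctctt
Itpka: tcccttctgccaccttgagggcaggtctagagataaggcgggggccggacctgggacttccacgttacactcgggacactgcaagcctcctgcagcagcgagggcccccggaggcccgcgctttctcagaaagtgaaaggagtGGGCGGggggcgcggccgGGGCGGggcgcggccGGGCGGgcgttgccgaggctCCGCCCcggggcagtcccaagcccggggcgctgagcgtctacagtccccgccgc
Ankrd63: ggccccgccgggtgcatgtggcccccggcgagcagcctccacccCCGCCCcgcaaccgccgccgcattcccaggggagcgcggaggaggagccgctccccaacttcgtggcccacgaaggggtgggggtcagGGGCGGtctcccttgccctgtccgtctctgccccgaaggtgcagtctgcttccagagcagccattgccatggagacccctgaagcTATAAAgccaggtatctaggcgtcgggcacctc
Igfn1: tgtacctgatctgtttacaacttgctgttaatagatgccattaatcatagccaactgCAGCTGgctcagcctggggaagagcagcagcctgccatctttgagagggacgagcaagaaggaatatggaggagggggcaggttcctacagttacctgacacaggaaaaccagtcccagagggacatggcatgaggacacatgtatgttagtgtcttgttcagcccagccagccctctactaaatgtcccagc

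Motifs were searched on both strands in windows of the 250 bases before and 50 bases after the start, for these genes and for 32851 promoters in all. The GC box GGGCGG occurred in 6 of the 7 member promoters, all but that of Igfn1, and in 35.66% of all promoters. TGACGTCA, the full cyclic AMP response element, occurred in Plk2 alone, with its first base at -62 from the start, and in 1.79% of all promoters. Its shorter form TGACG, which overlaps it, was found in Plk2 and Ankrd33b and in 20.81% of all promoters. TATAAA occurred in Ankrd63 at -33 (13.62% of all promoters), CAGCTG, an E-box, in Igfn1 at -193 (16.3%), and CCAAT in Rasl11b and Slc8a2 (37.41%). None of the 7 held the E-box CATCTG (17.15% of all promoters), the early growth response site GCGTGGGCG (0.61%) or the serum response element (0.06%). The median GC content was 66.3% in the member windows and 52.7% in all, with a median of 24 and 7 CpG pairs. The Igfn1 window was apart from the other 6, with 48.7% GC and 2 CpG pairs. These matches are descriptions of sequence, and the libraries hold no measurement of binding.

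Library totals ranged from 13415391 to 29135064 expected counts, so that 3 counts, taken as the limit of what a library can show, correspond to 0.1095 to 0.2355 CPM, the unit in which counts are scaled to the library total adjusted by TMM. Such limits cover counting error only. The dissections were checked against marker lists. The summed level of 15 cortical excitatory markers ranged from 1411 to 3803 CPM in cortex and from 331 to 702 CPM in thalamus, so the thalamus pieces were not free of cortical marker RNA. The 15 thalamic markers summed to 296 to 1362 CPM in cortex and 737 to 4728 CPM in thalamus, so these ranges overlapped. Thalamus sums were 1009, 1488, 4369 and 1429 CPM in ret/wt (replicates 1 to 4) and 838, 4728, 899 and 737 CPM in ret/ret. The thalamus pieces thus differed widely in thalamic marker RNA. The highest cortex sum, in ret/ret replicate 2, lay above those of ret/wt thalamus replicate 1 and ret/ret thalamus replicates 1, 3 and 4. From that list, Slc17a6 was at 12.6 CPM in this cortex library and at 179 to 558 CPM in ret/ret thalamus. Tcf7l2 was at 7.37 CPM in it, against 18.3 to 219 CPM, and Prkcd at 65.5 CPM, against 10.8 to 1141 CPM. Cerebellar markers (10 genes) summed to 5128 CPM in ret/ret cortex replicate 2 and 2358 CPM in ret/wt cortex replicate 3, against 166 to 251 CPM in the other 6 cortex libraries. Gabra6, a receptor subunit of cerebellar granule cells, was at 397 and 182 CPM in those 2 libraries and between 0 and 0.391 CPM in the other cortex libraries. Without ret/wt cortex replicate 3 the ret/wt log2 differences between thalamus and cortex of the 9 genes ran from -5.95 (Igfn1) to -2.53 (Plk2), and without ret/ret cortex replicate 2 those of ret/ret ran from -6.22 (Ankrd63) to -2.46 (Plk2). Levels, their order and the comparisons with relatives are given with all libraries. In ret/wt cortex replicate 4, choroid plexus markers (10 genes) summed to 1165 CPM, against 10.2 to 68.5 CPM in the other 7 cortex libraries, with Ttr, a thyroid hormone carrier made there, at 1038 CPM. Fibcd1, from the hippocampal list, was at 138 CPM in that library and at 3.03 to 17.6 CPM in the other cortex libraries.

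**Figure D1:**
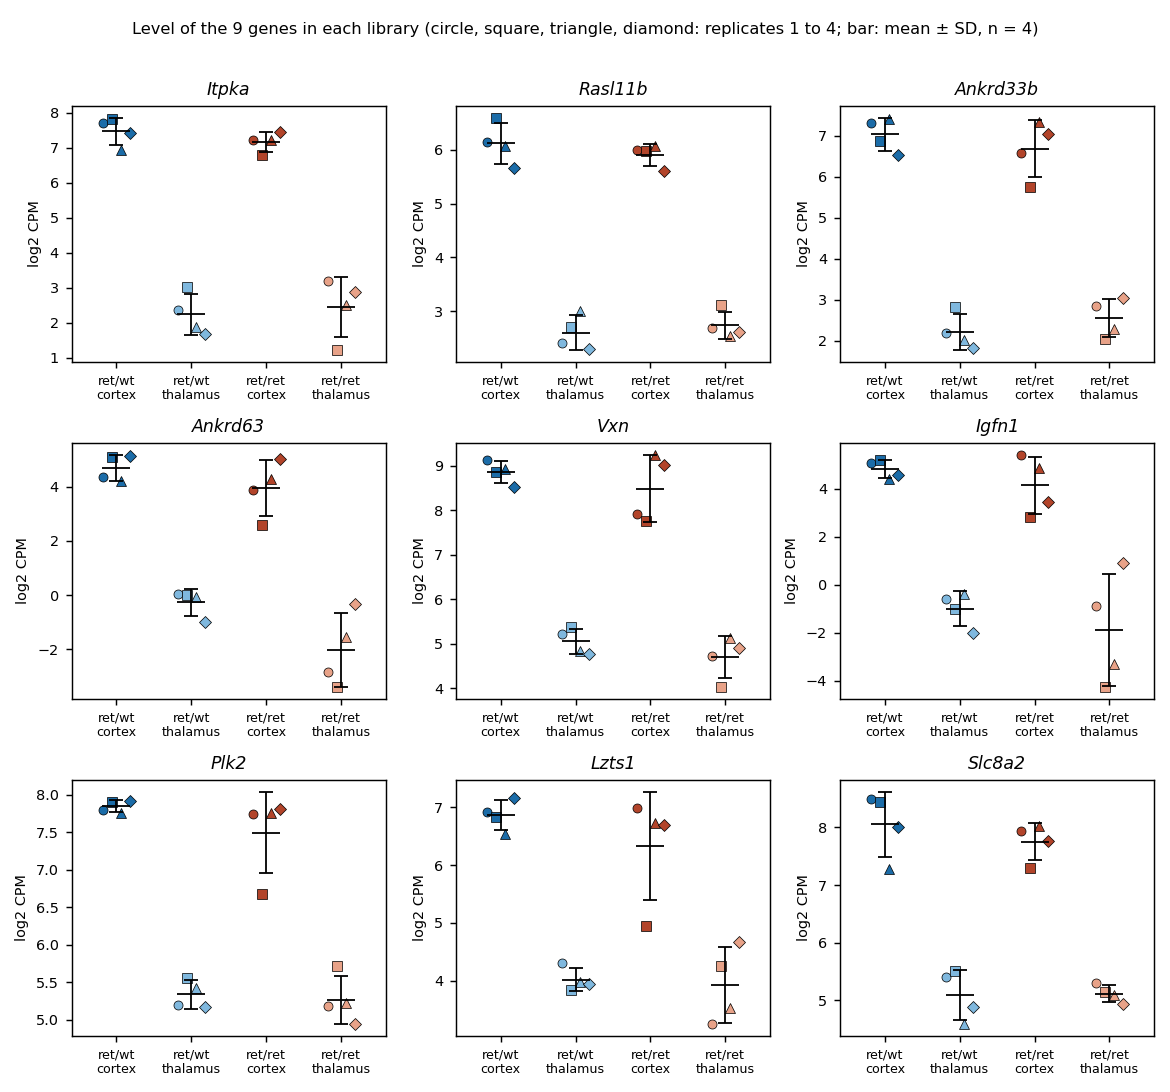
Log2 CPM (prior count of 1) of each of the 9 genes in the 16 libraries, by group, with 1 point per library, shaped by replicate. Bars give the mean ± SD of each group. Cortex points lie above thalamus points in every panel, and the lowest cortex point of Lzts1 (30.7 CPM, ret/ret) comes nearest to a thalamus point (25.4 CPM).

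Itpka and Slc8a2, which act on inositol trisphosphate and calcium, were both far lower in thalamus. Itpka stood at 209, 224, 122 and 171 CPM in the ret/wt cortex libraries (replicates 1 to 4) and at 5.09, 7.99, 3.65 and 3.17 CPM in the ret/wt thalamus libraries. In ret/ret it stood at 148, 110.2, 150.4 and 174 CPM in cortex and at 9.13, 2.28, 5.63 and 7.25 CPM in thalamus. The regions did not overlap, and the lowest cortex library of each genotype was at least 12.1 times the highest thalamus library. The fitted log2 difference, thalamus minus cortex, was -5.18 ± 0.35 (SE) in ret/wt and -4.58 ± 0.40 in ret/ret (n = 4 a group). Slc8a2 stood at 361, 347, 156 and 257 CPM in ret/wt cortex and at 42.5, 45.6, 24.0 and 29.7 CPM in ret/wt thalamus. In ret/ret its levels were 246, 157, 259 and 218 CPM in cortex and 39.5, 35.2, 34.2 and 30.3 CPM in thalamus. Slc8a2 thus kept a larger part of its cortex level, 12.7% in ret/wt and 15.8% in ret/ret from the group means, than Itpka with 2.74% and 4.17%. The log2 difference of Slc8a2 was -2.97 ± 0.32 in ret/wt and -2.65 ± 0.19 in ret/ret, and replicate 3 was its lowest library in both regions of ret/wt.

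The postsynaptic genes Plk2 and Lzts1 showed the smallest regional differences of the 9. Plk2 stood at 223, 239.6, 217 and 242 CPM in ret/wt cortex and at 36.6, 47.1, 42.8 and 35.9 CPM in ret/wt thalamus. For ret/ret the levels were 214, 103, 216 and 224 CPM in cortex and 36.2, 52.1, 37.3 and 30.5 CPM in thalamus. Plk2 was the most even gene in ret/wt cortex, with a coefficient of variation of 5.39%, and in ret/ret cortex 3 libraries were equally close together while replicate 2 was low. Its log2 difference was -2.49 ± 0.17 in ret/wt and -2.27 ± 0.28 in ret/ret, and -2.46 in ret/ret without cortex replicate 2. Lzts1 stood at 121, 113, 92.9 and 142 CPM in ret/wt cortex and at 19.8, 14.3, 15.6 and 15.4 CPM in ret/wt thalamus. In ret/ret its cortex levels were 126, 30.7, 105 and 103 CPM and its thalamus levels 9.49, 19.1, 11.5 and 25.4 CPM. Again cortex replicate 2 was the low library, and there the distance to the highest thalamus library closed to 1.21 times. The log2 difference of Lzts1 was -2.84 ± 0.20 in ret/wt and -2.48 ± 0.46 in ret/ret, or -2.75 without that library.

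The small GTPase Rasl11b stood at 70.6, 96.8, 67.4 and 50.8 CPM in ret/wt cortex and at 5.22, 6.43, 8.01 and 4.85 CPM in ret/wt thalamus. Its ret/ret levels were 63.3, 62.7, 66.9 and 48.6 CPM in cortex and 6.34, 8.58, 5.77 and 6.04 CPM in thalamus. Rasl11b was the one member whose level in ret/ret cortex replicate 2 lay among the other libraries of its group. The log2 difference was -3.53 ± 0.27 in ret/wt and -3.17 ± 0.20 in ret/ret. Vxn, the member with the highest CPM in cortex, stood at 559, 465, 484 and 368 CPM in ret/wt cortex and at 36.9, 41.6, 28.8 and 27.4 CPM in ret/wt thalamus. In ret/ret cortex its libraries fell into a low pair, replicates 1 and 2 at 243 and 217 CPM, and a high pair, replicates 3 and 4 at 609 and 516 CPM. Thalamus libraries of ret/ret held 26.4, 16.3, 34.9 and 30.0 CPM of Vxn. The log2 difference was -3.79 ± 0.23 in ret/wt and -3.88 ± 0.41 in ret/ret, and even the lowest ret/ret cortex library held 6.21 times the level of the highest thalamus library of that genotype.

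Ankrd33b stood at 158, 117, 169.7 and 92.3 CPM in ret/wt cortex and at 4.49, 6.99, 4.01 and 3.49 CPM in ret/wt thalamus. In ret/ret, cortex libraries held 95.7, 53.9, 161 and 133 CPM and thalamus libraries 7.14, 4.07, 4.80 and 8.15 CPM. Its log2 difference was -4.81 ± 0.31 in ret/wt and -4.19 ± 0.39 in ret/ret, close to that of Itpka. Ankrd63 was low in CPM even in cortex, with 20.6, 34.0, 18.4 and 34.9 CPM in ret/wt and 14.5, 6.02, 19.5 and 32.6 CPM in ret/ret. Thalamus libraries held 0.993, 0.943, 0.897 and 0.452 CPM of Ankrd63 in ret/wt and 0.0887, 0.0447, 0.291 and 0.755 CPM in ret/ret. The ret/ret thalamus levels rest on 2, 1, 6 and 15 counts, and those of replicates 1 and 2 are under the 3-count limit. The fitted log2 difference, which depends at such counts on the fit, was -5.00 ± 0.36 in ret/wt and -5.94 ± 0.81 in ret/ret, where it was -6.97 without thalamus replicate 4.

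Igfn1 was the most uneven member in ret/ret cortex. It stood at 33.7, 36.3, 20.97 and 23.7 CPM in ret/wt cortex and at 42.5, 7.02, 28.6 and 10.9 CPM in ret/ret cortex, a coefficient of variation of 26.1% and 73.8%. In thalamus it was at 0.604, 0.444, 0.718 and 0.194 CPM in ret/wt, from 14, 8, 12 and 3 counts. In ret/ret thalamus the counts were 11, 0, 1 and 36, or 0.488, 0, 0.0485 and 1.81 CPM, so that 1 library holds most of the group's signal and the count of 0 allows up to 0.1341 CPM. The log2 difference of Igfn1 was -5.82 ± 0.39 in ret/wt and -5.25 ± 1.10 in ret/ret, the largest SE of the 9. Without ret/ret thalamus replicate 4 the ret/ret value was -6.89, and without ret/ret cortex replicate 1 it was -4.69.

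**Figure D2:**
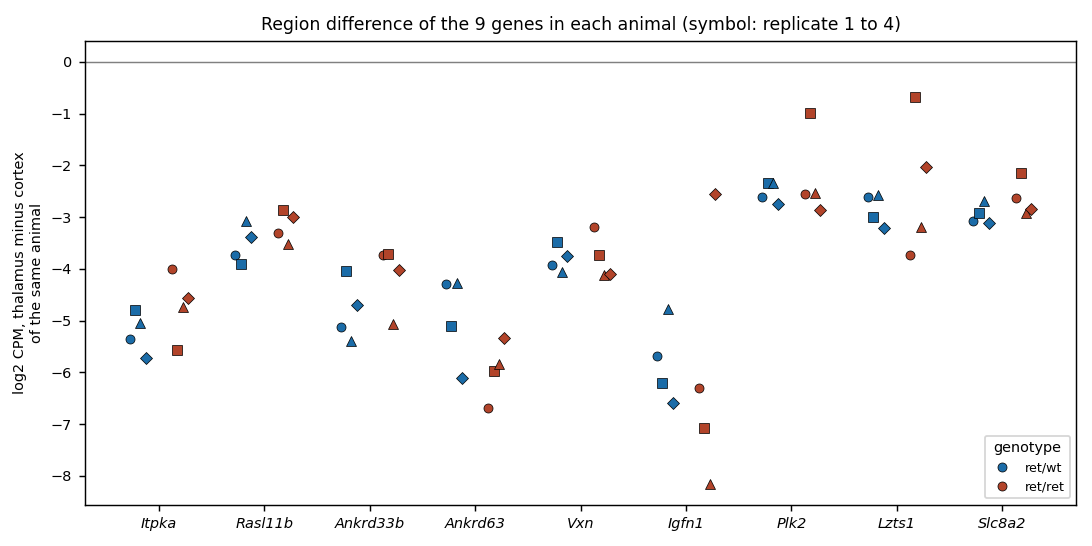
Log2 difference in CPM, thalamus minus cortex, for each gene within each of the 8 animals, with 1 point per animal, coloured by genotype and shaped by replicate (log2 CPM with a prior count of 1). All points lie below 0, and the ret/ret points of Lzts1, Plk2 and Igfn1 are spread more widely than those of ret/wt.

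Over both genotypes together, the 8 cortex libraries lay above the 8 thalamus libraries without overlap for 9 of 9 genes, and for 3.92% of all genes. As the genes were chosen on these differences, nothing is read from that count. The median log2 difference over the 9 was -3.79 in ret/wt and -3.88 in ret/ret, beside 0.03 and -0.02 over all genes. Thalamus levels as a share of cortex levels, from group means, ran from 1.71% for Igfn1 to 17.6% for Plk2 in ret/wt and from 1.62% for Ankrd63 to 20.6% for Plk2 in ret/ret. In percentage points, the widest spans between single animals were those of Lzts1 and Plk2 in ret/ret, at 7.51% to 62.2% and 13.6% to 50.7%. The upper value of both belongs to replicate 2, whose cortex library held the cerebellar markers. On the log2 scale the differences within animals spread most for Igfn1 in ret/ret (SD 2.43, against 1.35 for Lzts1 and 0.85 for Plk2). In bulk tissue, fewer cells of a type and less RNA per cell cannot be told apart.

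To compare genes with each other, levels were divided by exon length. Over the 8 cortex libraries, the mean level per kb fell in the order Vxn (133 ± 44.2 CPM per kb, SD), Itpka (90.0 ± 21.7), Slc8a2 (47.5 ± 14.5), Plk2 (46.7 ± 9.92), Rasl11b (30.5 ± 6.83), Lzts1 (15.4 ± 4.92), Ankrd33b (13.99 ± 4.63), Ankrd63 (4.64 ± 2.13) and Igfn1 (2.83 ± 1.37). Only Rasl11b and Lzts1, among neighbours in that order, had ranges that did not overlap. In thalamus the order began with Vxn (9.30 ± 2.36 CPM per kb), Plk2 (8.87 ± 1.56) and Slc8a2 (6.68 ± 1.36), followed by Itpka (3.04 ± 1.34), Rasl11b (2.96 ± 0.598) and Lzts1 (2.40 ± 0.740). Ankrd33b (0.615 ± 0.201) was apart from Lzts1 above and from Ankrd63 (0.115 ± 0.0799) below, without overlap, and Igfn1 (0.0598 ± 0.0640) was last. Itpka thus came right after Vxn in cortex but after Plk2 and Slc8a2 in thalamus.

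Relatives of the members, 19 of the 20 listed, were tested in the same contrasts with edgeR's quasi-likelihood test and Benjamini-Hochberg adjustment over all genes (Ankrd33 was not analysed here). In ret/wt 3 of the 18 tested were higher in thalamus and 3 lower, with a median log2 difference of 0.03, and 5.44% and 7.12% of all genes were called higher and lower. In ret/ret 2 of 19 were higher and 2 lower, with a median of -0.08, and 4.10% and 5.40% of all genes were called. Itpkb, another kinase of inositol trisphosphate, was higher in thalamus, opposite to Itpka. Over 4 ret/wt animals, Itpkb averaged 39.4 ± 11.2 CPM (SD) in cortex libraries, and thalamus libraries held 116 ± 29.8 CPM. The fitted log2 difference was 1.56 ± 0.26 (adjusted p = 0.0034). In ret/ret the log2 difference of Itpkb was 1.73 ± 0.42 (adjusted p = 0.0341), a call lost in 6 of the 8 fits without 1 library, those without cortex replicate 1, 3 or 4 or thalamus replicate 1, 3 or 4 (adjusted p up to 0.0916). The third kinase of the family, Itpkc, was not called (-0.54 ± 0.28, adjusted p = 0.244 in ret/wt, and 0.14 ± 0.36, adjusted p = 0.848 in ret/ret).

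Among the exchangers related to Slc8a2, Slc8a3 was called higher in ret/wt thalamus (1.05 ± 0.26, adjusted p = 0.0233), but the call held in only 1 of the 8 fits without 1 library, that without thalamus replicate 4 (adjusted p up to 0.0704 in the rest). In ret/ret its log2 difference was 0.97 ± 0.33 (adjusted p = 0.0931). Slc8a1 was not called in ret/wt (-0.97 ± 0.42, adjusted p = 0.171) or ret/ret (-0.88 ± 0.38, adjusted p = 0.175), and neither was Slc8b1 (-0.13 and 0.36). Per kb, Slc8a2 was the highest of the exchangers in ret/wt cortex at 53.3 CPM per kb, with Slc8a3 at 5.97 CPM per kb. In ret/wt thalamus Slc8a3 reached 12.3 CPM per kb and Slc8a2 6.74 CPM per kb. The relatives of Plk2 were not called in ret/wt (Plk3 -0.25, Plk4 0.30, Plk5 0.19, with Plk1 not tested for low counts) or in ret/ret (Plk1 -0.28, Plk3 -0.08, Plk4 -0.42, Plk5 -0.39).

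Lzts3, related to Lzts1, was lower in thalamus, with 81.5 ± 9.48 CPM against 221 ± 53.4 CPM in ret/wt cortex. Its log2 difference was -1.43 ± 0.21 (adjusted p = 0.0018) in ret/wt and -1.36 ± 0.24 (adjusted p = 0.0108) in ret/ret. Lzts2 (0.42 and 0.31) and N4bp3 (-0.27 and -0.34) were not called in ret/wt or ret/ret. Of the small GTPases near Rasl11b, Rasl10a was lower by a similar amount, at -3.34 ± 0.45 (adjusted p = 0.0012) and -3.28 ± 0.53 (adjusted p = 0.0074). Rasl10b was called lower in ret/wt (-0.81 ± 0.20, adjusted p = 0.0243), which was lost without cortex replicate 1 or 2 or thalamus replicate 1 or 2 (adjusted p up to 0.0752), and not in ret/ret (-0.43 ± 0.22, adjusted p = 0.239). Rasl11a, the closest by name (0.25 ± 0.57 and 0.48 ± 0.88), and Rasl12 (0.70 and 0.38) were not called. Of the ankyrin repeat genes listed with Ankrd63, Ankrd34b was called higher in thalamus at 0.99 ± 0.24 (adjusted p = 0.0245) in ret/wt and 0.95 ± 0.25 (adjusted p = 0.0449) in ret/ret. The ret/wt call was lost without cortex replicate 2 or 4 or thalamus replicate 1 or 2 (adjusted p up to 0.074), and the ret/ret call without any 1 library except thalamus replicate 2 (up to 0.119). Ankrd34a (-0.53 and -0.58) and Ankrd34c (1.26 and 0.71) were not called.

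**Figure D3:**
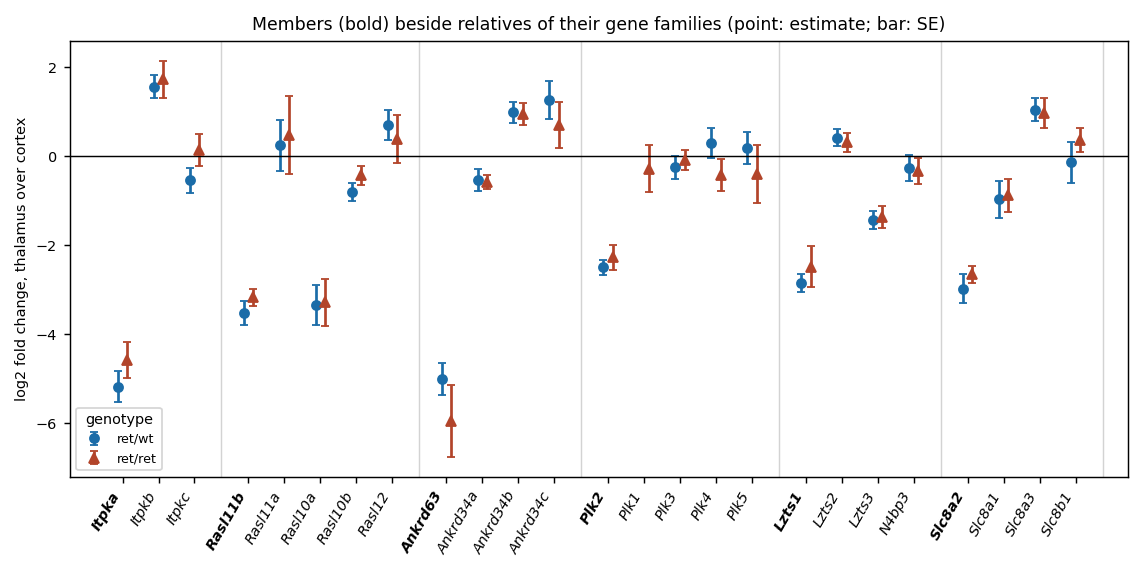
Log2 difference, thalamus minus cortex, of members (bold) and their listed relatives, with points for the estimate and bars for the SE in ret/wt (circles) and ret/ret (triangles). Itpka, Plk2, Lzts1, Slc8a2 and Ankrd63 have the lowest points of their families, Rasl10a (-3.34 in ret/wt) lies next to Rasl11b (-3.53), and Itpkb lies above 0 (1.56).

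The other genes of the members' pathways were tested one by one and are counted by list. As the lists were chosen with earlier results of these data known, their counts are descriptions and no independent support. Of all genes tested, 7.12% were called lower and 5.44% higher in ret/wt thalamus, and 5.40% and 4.10% in ret/ret thalamus. Of 28 genes of inositol phosphate signalling, 7 were lower and 2 higher in ret/wt thalamus (median log2 difference -0.40), and 5 were lower and 1 higher in ret/ret (median -0.26). Over the ret/ret fits without 1 library the lower count ran from 3, without thalamus replicate 1 or 4, to 7, and DESeq2 called 8 lower and 2 higher. Chrm1, a muscarinic receptor upstream of inositol trisphosphate, showed the largest difference of that list, 7.82 ± 4.49 CPM in thalamus against 212 ± 50.5 CPM in cortex of ret/wt. Its log2 difference was -4.75 ± 0.45 (adjusted p = 2.5e-04) and, in ret/ret, -4.16 ± 0.44 (adjusted p = 0.0021). Dgkz, a diacylglycerol kinase, was lower by -2.02 ± 0.31 (adjusted p = 0.0026) and -2.06 ± 0.27 (adjusted p = 0.0041). Itpr1, the receptor for inositol trisphosphate, was called at -2.23 ± 0.53 (adjusted p = 0.0202) in ret/wt, lost without thalamus replicate 1 or 2 (adjusted p up to 0.0535). In ret/ret it was called at -2.45 ± 0.64 (adjusted p = 0.0437), lost without cortex replicate 3 or any 1 thalamus library (up to 0.12). Purkinje cells of the cerebellum express Itpr1 strongly, and cerebellar markers were present in 1 cortex library of each genotype. The calls of Itpr1 held without that library, and the part of cerebellar RNA in the Itpr1 levels was not tested. The phosphatase Inpp4b was called higher in ret/wt thalamus (1.39 ± 0.34, adjusted p = 0.0239), a call lost without cortex replicate 1 or 2 or thalamus replicate 2 or 3 (adjusted p up to 0.0632), and not in ret/ret (0.43 ± 0.51, adjusted p = 0.634).

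Of 26 tested genes for calcium exchange, pumping and binding, 11 were lower and 1, Slc8a3, higher in ret/wt thalamus (median -0.81), and 8 lower and 0 higher in ret/ret (median -0.87). Without ret/ret cortex replicate 2 those ret/ret counts were 10 and 1, and by DESeq2 13 and 1. The lower count fell to 5 without cortex replicate 3, thalamus replicate 3 or thalamus replicate 4. Hpcal4, a neuronal calcium sensor, was at 140.2 ± 37.8 CPM in thalamus and 1473 ± 360.2 CPM in cortex of ret/wt, a log2 difference of -3.38 ± 0.28 (adjusted p = 1.1e-04), and of -2.71 ± 0.42 (adjusted p = 0.0065) in ret/ret. Camk2a, the calcium/calmodulin kinase of spines, was lower by -2.95 ± 0.32 (adjusted p = 4.2e-04) and -2.57 ± 0.48 (adjusted p = 0.0128). Atp2b4, a calcium pump of the plasma membrane, was lower by -2.44 ± 0.47 (adjusted p = 0.0076) and -2.32 ± 0.43 (adjusted p = 0.0128).

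Postsynaptic density and spine genes, to which Plk2 and Lzts1 belong by function, were lower for 20 of 31 and higher for none in ret/wt thalamus (median -1.33). In ret/ret 17 were lower and 1 higher, Sipa1l2, which is named for its direction alone (median -1.29). The call of Sipa1l2 was lost in 6 of 8 fits without 1 library, all but those without cortex replicate 3 or thalamus replicate 2 (adjusted p up to 0.11). Icam5, an adhesion protein of forebrain dendrites, was at 5.58 ± 3.38 CPM in thalamus and 153 ± 88.7 CPM in cortex of ret/wt (-4.76 ± 0.59, adjusted p = 8.2e-04, and -3.92 ± 0.67, adjusted p = 0.0087 in ret/ret). Kalrn, an exchange factor that shapes spines, was lower by -3.60 ± 0.38 (adjusted p = 3.4e-04) and -3.23 ± 0.41 (adjusted p = 0.0041). Dlg4 was counted at only 4.23 ± 2.25 CPM in ret/wt cortex and was called lower in ret/wt (-3.37 ± 0.96, adjusted p = 0.0441), a call lost without any 1 library except cortex replicate 4 or thalamus replicate 3 (adjusted p up to 0.12), and not in ret/ret (-1.29 ± 1.40, adjusted p = 0.594).

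Activity-induced genes, the class to which Plk2 is often assigned, were lower in thalamus for 14 of 17 tested in ret/wt (median -2.45) and for 11 of 17 in ret/ret (median -1.84), with none higher. Egr3, an early growth response factor, was at 6.56 ± 3.82 CPM in thalamus and 203 ± 61.7 CPM in cortex of ret/wt (-4.94 ± 0.47, adjusted p = 2.5e-04), and its ret/ret difference was -3.80 ± 0.58 (adjusted p = 0.0061). Arc, a regulator of receptor uptake at synapses, was lower by -4.09 ± 0.53 (adjusted p = 0.001) and -2.97 ± 0.45 (adjusted p = 0.0061). Egr2 was called at -4.27 ± 1.09 (adjusted p = 0.0284) in ret/wt, lost without cortex replicate 1 or 2 or thalamus replicate 1, 3 or 4 (adjusted p up to 0.0844), and at -3.96 ± 0.66 (adjusted p = 0.0079) in ret/ret. The ret/ret count of activity-induced genes ranged from 6 to 11 over the fits without 1 library, with the lowest without thalamus replicate 3, and 7 without cortex replicate 3 or thalamus replicate 1. For spine genes that range was 15 to 20 in ret/wt and 12 to 19 in ret/ret.

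The regional contrast also moved with cell type markers. Cortical markers were lower in thalamus for 11 of 15 in ret/wt and 11 of 15 in ret/ret, among them the transcription factors Fezf2 (-6.16 ± 0.68, adjusted p = 4.3e-04 in ret/wt) and Tbr1 (-5.77 ± 0.66, adjusted p = 4.9e-04). Thalamic markers were higher for 8 of 14 and 4 of 15, with Tcf7l2, a thalamic transcription factor, at 5.16 ± 0.34 (adjusted p = 3.8e-05) in ret/wt. In ret/ret the cortical count fell to 7 without cortex replicate 3 or thalamus replicate 1, and the thalamic count was 2 without cortex replicate 3 and 6 without cortex replicate 2. Oligodendrocyte markers were higher for 10 of 10 in ret/wt and 9 of 10 in ret/ret, with medians of 1.70 and 1.5. The median log2 difference of the cortical marker list was -3.90 in ret/wt and -3.33 in ret/ret, next to -3.79 and -3.88 for the 9 genes. The part of cell makeup in the members' differences was not tested.

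The genes most like the members in pattern were sought over the 16 libraries, as Pearson's correlation of log2 CPM with the mean of the 9 z-scored members. Among the 5 highest were Kcnv1 (r = 0.989), Gm43517 (0.982), Pde1a (0.981) and Tbr1 (0.979). These libraries fall into 2 regions that share the split by which the members were chosen, so r mostly restates it and no p is given. Kcnv1, a silent potassium channel subunit, was at 108 ± 28.9 CPM in ret/wt cortex and 3.46 ± 1.73 CPM in thalamus, and at 92.4 ± 56.7 and 3.46 ± 1.04 CPM in ret/ret. Pde1a, a calmodulin-dependent phosphodiesterase, was at 325 ± 30.2 and 29.1 ± 13.6 CPM in ret/wt. Ranked by Spearman's correlation, none of the 5 remained among the first 5, which were Gm19410, Cckbr, Dis3l2, Plxna2 and Sipa1l1, and Kcnv1 was in place 6.

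The members did not vary independently among libraries of a group. In ret/ret cortex, replicate 2 was the lowest library for 8 of the 9 genes, all but Rasl11b, with a median deviation from the group mean of -0.81 on the log2 scale. In ret/wt cortex, replicate 3 was the lowest for 6 of 9 (Itpka, Ankrd63, Igfn1, Plk2, Lzts1 and Slc8a2). These are the 2 libraries with cerebellar markers. The lowest ret/wt cortex library for Rasl11b, Ankrd33b and Vxn was replicate 4, with the choroid plexus markers, and without it their log2 differences between regions were -3.66, -4.94 and -3.88. In replicate 2 of ret/ret cortex the cortical markers summed to 1411 CPM, against 2480 to 3746 CPM in the other 3, and the thalamic markers to 1362 CPM, against 395 to 640 CPM. The thalamic markers were not all raised there. Slc17a6 was at 12.6 CPM, against 39.9 to 72.1 CPM in the other 3. Tcf7l2 was at 7.37 CPM, against 3.78 to 4.88 CPM, and Prkcd at 65.5 CPM, against 5.99 to 9.15 CPM. The part of cerebellar RNA in the thalamic marker sum was not tested. Among thalamus libraries, ret/wt replicate 4 was the lowest for 7 of 9 genes and had the lowest sum of cortical markers, 331 CPM against 586 to 702 CPM. Replicate 4 of ret/ret thalamus was highest for Ankrd33b, Ankrd63, Igfn1 and Lzts1 and held 12.7 CPM of Neurod6, a factor of cortical and hippocampal excitatory neurons, against 1.25 to 2.38 CPM in the other 3. The cortical markers summed to 444, 665, 550 and 614 CPM in ret/ret thalamus replicates 1 to 4, and their mean log2 CPM was 2.93, 2.70, 2.67 and 3.57. Replicate 2, with the highest sum, was the lowest library for 5 of the 9 genes and the highest for 2. The part of these marker levels in the members' levels was not tested.

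**Figure D4:**
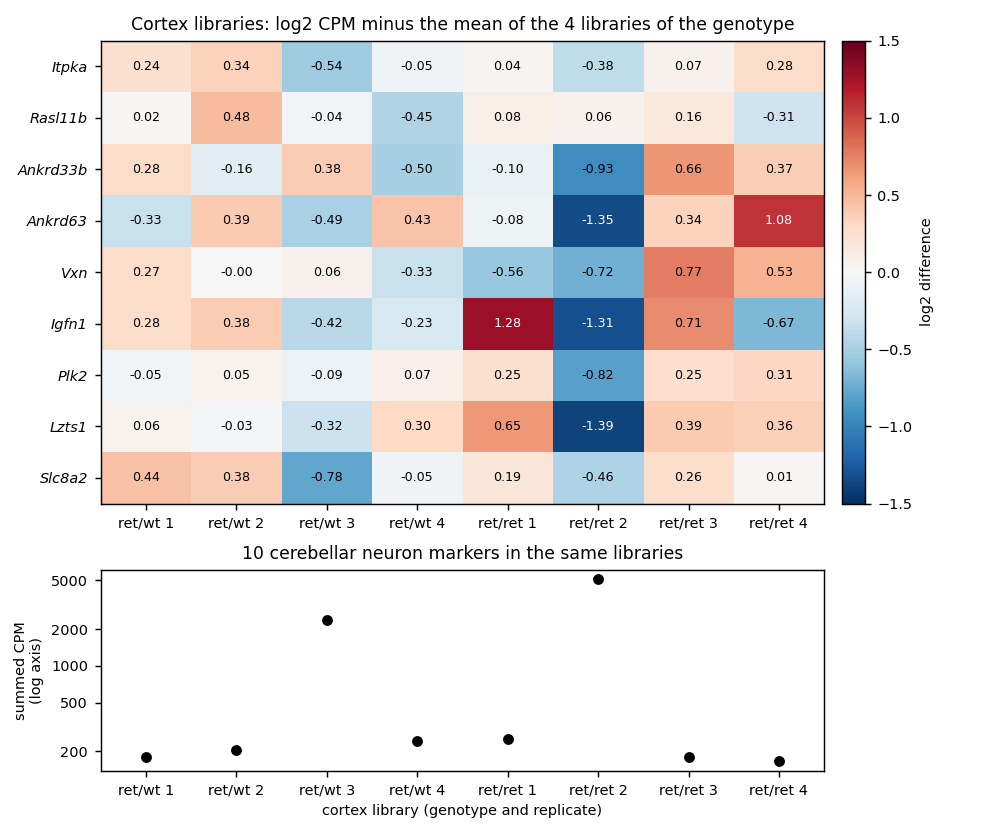
Upper panel: log2 CPM of each gene minus the mean of its genotype's 4 cortex libraries (colour and printed value) in the 8 cortex libraries. Lower panel: summed CPM of cerebellar markers (log axis) in the same libraries. Replicate 2 of ret/ret shows low values for 8 of 9 genes and the highest cerebellar sum (5128 CPM).

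Whether the members differ between genotypes was tested within each region with edgeR's quasi-likelihood test. In cortex none of the 9 passed at an adjusted p of 0.05 (0 of 9 also at an unadjusted p of 0.05, and 0 of 9 by DESeq2 and by limma-voom), where 0.0210% of all 14288 genes tested were called. The log2 differences, ret/ret minus ret/wt, were below 0 for 9 of 9, from -0.56 ± 0.44 for Ankrd63 to -0.22 ± 0.21 for Rasl11b, with an adjusted p of 0.999 for each. The median over the 9 was -0.30, beside 0.01 over all genes. The cortex libraries also entered the choice of the genes, so nothing is read from the shared direction or from that median. The 95% intervals were -0.79 to 0.19 for Itpka, -0.69 to 0.24 for Rasl11b, -0.79 to 0.26 for Plk2, -0.95 to 0.28 for Slc8a2 and -0.97 to 0.51 for Vxn. Those of Ankrd33b (-0.98 to 0.46), Lzts1 (-1.16 to 0.46), Igfn1 (-1.46 to 0.76) and Ankrd63 (-1.55 to 0.43) were wider, so changes of up to about those sizes could not have been told from none. Without ret/ret cortex replicate 2 the log2 differences lay between -0.27 and -0.03, and without ret/wt cortex replicate 3 between -0.72 and -0.14. The groups overlapped for 9 of 9 genes, while 2.32% of all genes did not overlap.

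In thalamus, where genotype and dissected material cannot be told apart, none of the 9 passed either (0 of 9 at an unadjusted p of 0.05, 0 of 9 by DESeq2 and by limma-voom, the latter with 1 of 9 at an unadjusted p of 0.05). Of all 14767 genes tested, 0.00% were called, with 581 at an unadjusted p of 0.05 and 38 called by DESeq2. Plk2 (-0.02 ± 0.20, 95% interval -0.47 to 0.42), Slc8a2 (0.01 ± 0.22, -0.48 to 0.51) and Lzts1 (0.04 ± 0.31, -0.64 to 0.72) had estimates nearest to 0. Rasl11b (0.16 ± 0.27, -0.44 to 0.76), Itpka (0.33 ± 0.45, -0.67 to 1.32), Ankrd33b (0.39 ± 0.34, -0.36 to 1.14) and Vxn (-0.29 ± 0.25, -0.84 to 0.27) had intervals that include 0 as well. The estimate of Igfn1, 0.28 ± 1.07 (-2.11 to 2.67), turned to -1.37 without ret/ret thalamus replicate 4, which held 36 of its counts. Ankrd63 had the largest estimate, -1.45 ± 0.75 (-3.12 to 0.22, unadjusted p = 0.0823, adjusted p = 1), and it ranged from -2.48 without ret/ret thalamus replicate 4 to -1.09 without replicate 2. That estimate rests on 2, 1, 6 and 15 counts in ret/ret thalamus. Groups overlapped for 9 of 9 members, while 2.73% of all genes did not overlap. The thalamus libraries, too, entered the choice of the genes, so these tests are not independent of it.

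**Figure D5:**
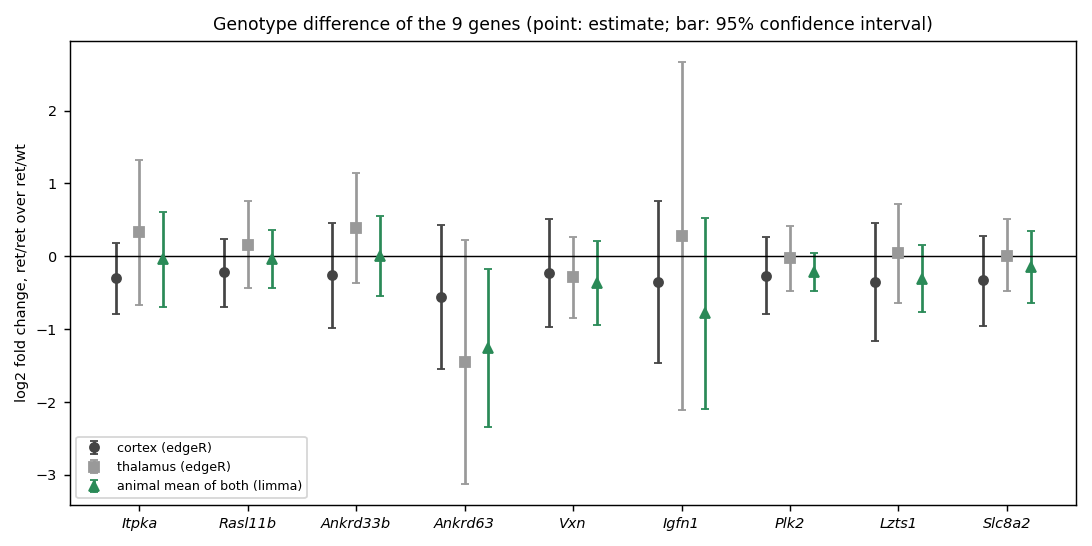
Log2 difference, ret/ret minus ret/wt, with 95% intervals, for the 9 genes in cortex, in thalamus and averaged over both regions of each animal. All cortex and thalamus intervals include 0, and that of Ankrd63 averaged over regions runs from -2.34 to -0.17. Ankrd63 had 2, 1, 6 and 15 counts in ret/ret thalamus.

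Averaging the regions of each animal gives both regions equal weight in the genotype effect. Such an average is independent of the regional difference used to choose the genes only where both regions vary equally. In ret/ret they did not: the SD of log2 CPM was 2.34 in thalamus and 1.20 in cortex for Igfn1, and 0.47 and 0.75 for Vxn. The averaged effect was tested with limma on 8 animal means, where 0.0131% of 15286 genes were called. None of the 9 passed (1 of 9 at an unadjusted p of 0.05, and 0 of 9 with edgeR on the 16 libraries). That 1 gene was Ankrd63, at -1.26 ± 0.49 (95% interval -2.34 to -0.17, unadjusted p = 0.0279, adjusted p = 0.862 by limma). In ret/ret thalamus Ankrd63 had 2, 1, 6 and 15 counts, with replicates 1 and 2 under the 3-count limit. At such counts log2 CPM depends on the prior count. Without ret/ret replicate 2 its log2 difference was -0.79, and without replicate 4 it was -1.72. The others were -0.78 ± 0.59 for Igfn1, -0.36 ± 0.26 for Vxn, -0.31 ± 0.21 for Lzts1, -0.21 ± 0.12 for Plk2, -0.14 ± 0.22 for Slc8a2, -0.04 ± 0.29 for Itpka, -0.04 ± 0.18 for Rasl11b and 0.00 ± 0.25 for Ankrd33b. Their median with Ankrd63 was -0.21, beside -0.02 over all genes.

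The difference between genotypes in the regional contrast involves the contrasts used for the choice, and so is given for the members as an estimate with its SE and no test. It was positive, a smaller deficit in ret/ret thalamus, for 7 of 9, from 0.23 ± 0.31 for Plk2 to 0.62 ± 0.46 for Ankrd33b and 0.60 ± 0.50 for Itpka. For Vxn (-0.08 ± 0.44) and Ankrd63 (-0.93 ± 0.82) it was negative. Rasl11b (0.37 ± 0.31), Lzts1 (0.37 ± 0.50), Slc8a2 (0.32 ± 0.37) and Igfn1 (0.58 ± 1.14) completed the list, with a median of 0.37 beside -0.04 over all genes. Over all 15286 genes the interaction gave 0 calls by edgeR, with 245 at an unadjusted p of 0.05 and 4 called by DESeq2. For the pathway lists, edgeR called 0 genes of the inositol phosphate, calcium and spine lists in cortex (0 at an unadjusted p of 0.05, with 0 calls by DESeq2 and by limma-voom). Of the 17 activity-induced genes it called 0 in cortex, with 5 at an unadjusted p of 0.05 (beside 538 of all 14288 genes tested), 1 call by DESeq2 and 0 by limma-voom, and a median log2 difference of -0.72. In thalamus edgeR, DESeq2 and limma-voom each called 0 genes of these 4 lists, with 1 inositol phosphate gene and 1 spine gene at an unadjusted p of 0.05.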

How the data were processed

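Values are expected counts per gene, not whole numbers, deposited by the authors for 16 libraries. Kallisto 0.44.0 and GRCm38.p6 are named in the submitters' processing notes, with no role given. Whether the deposited expected counts were scaled by transcript length is not given in the sources used here, so levels per kb, which divide CPM by GENCODE M21 exon length, would change if they were. Symbols were matched for 21612 of 21804 genes (99.1%), and genes left unmatched held 0.28% of counts. Counts were rounded, scaled to TMM-adjusted library totals (fits and CPM), and filtered with filterByExpr (minimum count 10, minimum total 15). edgeR 4.0.16 (R 4.3.3) quasi-likelihood fits compared regions within genotype, genotypes within region, and their interaction, with Benjamini-Hochberg adjustment over all genes and a threshold of 0.05. The main regional and interaction fits did not pair the libraries of an animal. The genotype effect averaged over regions used limma 3.58.1 on animal means of log2 CPM (prior count 1). DESeq2 1.42.0, limma-voom, other filters and scalings, a replicate block and leaving out libraries were alternatives. The fits were tested on simulated data.

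Groups, ages and animals come from the labels. Libraries of an animal share its identifier there, and the correlations of their residuals were -0.017 to 0.239. Within a group, each library is a separate animal. The members and gene lists were chosen with earlier results of these data known. Named were all 9 members, their listed relatives, and from each other list up to 3 genes higher and 3 lower in thalamus with the largest fold among those called in ret/wt, of which those that bear on the members are printed, plus the 5 genes most alike in pattern. Of the genes this rule names, 2 are not reported here. No library was left out of the main fits. Ankrd33, Ddn, Nr4a1 and Sst were not analysed here.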

Additional observations from a re-analysis of the deposited data

Results flagged for a closer look

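In ret/ret cortex, Plk2 was at 103 CPM in replicate 2, against 214, 216 and 224 CPM in the other 3 libraries. The gap to the nearest library, as a share of the group's range, exceeded Dixon's 95% critical value for 4 samples. Of 36 groups of 4 examined, 1 was marked in this way, and chance marks about 1 in 20. The cerebellar markers summed to 5128 CPM in that library, and their part in the Plk2 level was not tested.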

How the results depend on the processing

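Precision is limited by 4 animals a group and, for Ankrd63 and Igfn1 in thalamus, by counts near the limit of detection. All 9 members kept their direction, lower in thalamus, in every alternative run in both genotypes. With the replicate block, which pairs the libraries of an animal, 1487 genes were called in the regional contrast of ret/wt (1813 without) and 1177 in that of ret/ret (1398 without), and 0 in the interaction. No member turned direction under it. At an adjusted p of 0.01 the calls were 784 in ret/wt, 361 in ret/ret and 0 for genotype in cortex. DESeq2 called 2597 in ret/ret, 39 for genotype in cortex, 38 in thalamus and 4 in the interaction. edgeR on the 16 libraries called 34 for genotype averaged over regions, against 2 in the main fit on animal means. That alternative treats the libraries of an animal as independent, which they are not. The main fits of the regional contrasts and of the interaction do so too, and only the replicate block pairs them. Without ret/wt replicate 3 and ret/ret replicate 2, the animals whose libraries hold reads of 4 Y-linked genes (111 to 174 CPM in sum, against 1.90 to 5.14 CPM in the other libraries) and whose cortex libraries hold the cerebellar markers, 2564 genes were called in ret/ret and 1 for genotype in cortex. With scaling by library size alone, 977 genes were higher and 844 lower in ret/wt thalamus, against 785 and 1028, and the median over all genes moved to 0.127 from 0.028.

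Leaving out 1 library or animal gave 1178 to 1797 calls in ret/wt, 627 to 2007 in ret/ret, 0 to 2 for genotype in cortex, 0 in thalamus and in the interaction, and 1 to 5 averaged over regions. The ret/wt count was lowest without cortex replicate 1 (1178). The ret/ret count was 627 and 759 without cortex replicates 3 and 4, and 714, 691 and 688 without thalamus replicates 1, 3 and 4. For genotype in thalamus, Igfn1 moved between -1.37 and 0.70, Plk2 between -0.19 and 0.08, Lzts1 between -0.25 and 0.22 and Slc8a2 between -0.13 and 0.15. Averaged over regions, Itpka moved between -0.19 and 0.24, Rasl11b between -0.17 and 0.06 and Ankrd33b between -0.15 and 0.25. The interaction of Igfn1 moved between -1.28 and 1.19, that of Plk2 between -0.13 and 0.42 and that of Vxn between -0.24 and 0.06.

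Other reversals concern genotype estimates that no fit called. In thalamus these were Igfn1 (-1.30) and Lzts1 (-0.07) by limma-voom and Slc8a2 (-0.03) with library size alone. Without the 2 animals with Y-linked reads, the sign turned for Ankrd33b in cortex (0.10), for Lzts1 (-0.06) and Slc8a2 (-0.14) in thalamus, and for Itpka (0.09) and Ankrd33b (0.28) averaged over regions. Averaged Ankrd33b was also 0.04 with edgeR on 16 libraries and 0.01 with DESeq2 size factors and with no filter. By Spearman's correlation 0 of the 5 genes most alike in pattern were kept. The cause of these changes was not tested.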
